A study of Homo sapiens with 647 samples.

Results

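Cytosolic and mitochondrial heat shock chaperones, taken as a list of 43 genes, were followed across 647 RNA-seq libraries of the breast cancer line T47D. The list is one of gene symbols with no threshold on a measured value, drawn up with earlier results of these data known, and 43 of the 43 listed symbols were found among the 54592 genes of the count table. They fall into 6 roles. These are 9 cytosolic Hsp70 family genes, 5 genes of mitochondrial chaperones, 7 genes of Hsp90 and its cochaperones, 12 J protein genes, 7 subunits of the chaperonin TRiC, and 3 regulators (HSF1, HSF2 and BAG3). HSPA13, which the list places with the cytosolic Hsp70 genes, is known as a microsomal protein.

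Molecular chaperones bind unfolded or newly made proteins, keep them from clumping and help them reach their folded form. Hsp70 proteins take up clients that J proteins deliver and release them with the help of exchange factors, Hsp90 and its cochaperones finish the folding of many kinases and steroid receptors, the oestrogen receptor among them, and the ring-shaped TRiC folds actin and tubulin. A subset of these genes is under heat shock factors, above all HSF1, which bind repeats of a short DNA motif and raise transcription when unfolded proteins build up; growth factor signalling is also known to act on several of them.

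T47D is an oestrogen receptor-positive luminal line. The cells carried lentivirus in the pLX307 plasmid coding for FGFR1, for wild-type FGFR2 or its mutants M538I, N550K and K660N, for the ligand FGF3 or for GFP, or were the parental cells, and were plated 48 hours before 24 hours of treatment. Lysates of wells in 96-well plates were made into SMART-Seq2 libraries, a full-length cDNA method for low input. The study compared fibroblast growth factor receptor signalling with and without drugs against the oestrogen receptor and the cell cycle. The agents were fulvestrant at 100 nM, which degrades the oestrogen receptor, palbociclib at 1 µM, which inhibits the cyclin D-dependent kinases, FIIN-3 at 100 nM, a covalent FGFR inhibitor, and trametinib at 500 nM, a MEK inhibitor. FGF2 is a ligand of these receptors, and no source used here gives its dose. The title numbers of the libraries run through and then start again, and these runs are called set 1 and set 2. No source used here says what separates them, and no comparison crosses them. In set 1, outside the FGF3 line, treatments lie in partly different stretches of title numbers. Any effect of stretch is thus in part confounded with treatment. In set 1 the parental, GFP, FGFR1 and FGFR2 lines were given DMSO, FGF2, FIIN-3 plus FGF2, fulvestrant, fulvestrant plus FGF2 and this pair with FIIN-3, trametinib or palbociclib; the N550K line also received FIIN-3 and fulvestrant plus FIIN-3, both without FGF2. In set 2 they were given FIIN-3, palbociclib, palbociclib plus FGF2 and this pair with FIIN-3, or fulvestrant, palbociclib and FGF2 with FIIN-3 or trametinib. The FGF3 line was given DMSO (set 1) or these drugs without FGF2. In set 2 it also has a group of 6 libraries labelled control, for which no drug is named. Parental and GFP cells are called control lines and the FGFR1 and 4 FGFR2 lines receptor lines; a group of 1 line and 1 treatment holds 4 to 6 libraries. All cells descend from 1 line, and nothing in the labels says that the replicates of a group were separate cultures, so p-values measure only the spread between these wells, which may be technical.

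Total counts ranged from 512961 to 13012180 in set 1 (median 7570053) and from 619509 to 4804935 in set 2 (median 2887186). Libraries under 0.333 times the median total of their set are called low in depth, 20 in set 1 and 2 in set 2. Luminal markers were counted in every library (median 48.7 CPM for ESR1, 389 for GATA3 and 234.1 for EPCAM). The immune gene PTPRC was at 0 in 599 libraries, the endothelial gene PECAM1 in 590 and the fibroblast gene COL1A2 in 585. The macrophage gene CD68 was at 0 in only 77 (median 1.05 CPM) and the fibroblast gene VIM in only 36 (median 1.66 CPM). COL1A1 (median 22.3 CPM) and ACTA2 (median 11.5 CPM) were never at 0. In 14 libraries of set 1 and 2 of set 2 the mitochondrial ribosomal RNA MT-RNR2 took less than 5% of the counts, against medians of 11.2 to 23.9% over the treatments of each class of lines, and these libraries stood apart in the chaperones too. Against the other libraries of their own groups, the set 1 libraries of this kind had more HSPE1 in 14 of 14 (median difference 2.26 log2 CPM), and in 14 of 14 also more DNAJB2 (1.28), HSPA1A (1.26), DNAJC8 (1.22) and HSP90AA1 (0.93), whereas TRAP1 (-2.51) and STIP1 (-1.73) were the most reduced. Of these 14, 7 are DMSO libraries of receptor lines, and values without such libraries are given beside each comparison whose count of calls they move by over 1.5 times and for named members whose call they change. HSPA1A and HSPA1B are near-identical copies, and HSPA8, HSPD1, HSPE1, the HSP90 genes and several CCT genes have processed pseudogenes, so the way reads were shared out makes the level of each uncertain. In bulk libraries, fewer cells of a kind and less RNA per cell cannot be told apart.

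Levels can be set side by side between genes only per transcript length, as TPM, which corrects counts for length and depth, and the 6 GFP libraries at DMSO give the order. HSPA8, the constitutive cytosolic Hsp70, had the highest median (1383 TPM), followed by the constitutive HSP90AB1 (1123) and the inducible HSP90AA1 (636). The TRiC subunits lay between 104.1 TPM for TCP1 and 416 for CCT3, and the mitochondrial pair HSPD1 and HSPE1, which form the Hsp60 chaperonin and its lid, were at 171.4 and 174.9 TPM. The stress-inducible HSPA1A was at 16.5 TPM, the Hsp110 exchange factor HSPH1 at 7.55 and the transcription factor HSF1 at 29.2. The scarcest members were DNAJB4 (1.34), the testis-enriched HSPA2 (1.11) and DNAJB5 (0.624). Neighbours in this order overlap: HSPA8 ran from 318.4 to 1605 TPM over the 6 libraries and HSP90AB1 from 400.2 to 1231. All further levels are CPM, counts scaled to library size within each set, which compare a gene with itself only.

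Heat shock factors bind repeats of the half-site GAA, head to head or tail to tail, and the members' promoters were searched for pairs of them. In RefSeq windows of 300 bases around transcript starts (GRCh38.p14, not the build of the counts), 40 of the 43 genes were matched, and 18 of these held GAANNTTC or TTCNNGAA, searched on both strands with overlaps allowed, against 16.2% of 27305 genes in the table. By window, 19 of 57 member windows (33.3%) and 13.5% of all 35116 held a match. Matches were found in 4 of 8 matched Hsp70 genes, 4 of 6 Hsp90 and cochaperone genes, 5 of 12 J protein genes, 3 of 7 TRiC genes, 2 of 5 mitochondrial genes and 0 of 2 regulators. The 120 bases before the start are shown for 6 members, with matched letters in capitals and written 5′ to 3′ on the gene's strand. They were picked among the members described in full or whose response to trametinib differed between the lines, and do not stand for the rest. Of the others that fit, HSPD1, HSPE1, DNAJC9, BAG3, STIP1 and TCP1, among more, hold no match in this stretch. HSP90AB1, CCT2 and DNAJA4 hold matches at 1 of their starts. HSP90AA1 has 2 windows and DNAJB1 3 in the table; the start with matches in this stretch was picked for each, and the other starts hold none in theirs:
CHORDC1 (chr11:90223050-90223169, strand -): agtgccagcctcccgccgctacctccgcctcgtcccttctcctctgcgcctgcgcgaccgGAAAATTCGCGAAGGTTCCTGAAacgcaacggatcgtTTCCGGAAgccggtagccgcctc
HSPA8 (chr11:123062137-123062256, strand -): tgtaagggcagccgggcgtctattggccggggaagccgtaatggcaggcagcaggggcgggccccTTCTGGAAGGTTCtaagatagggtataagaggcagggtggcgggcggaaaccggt
HSP90AA1 (chr14:102087045-102087164, strand -): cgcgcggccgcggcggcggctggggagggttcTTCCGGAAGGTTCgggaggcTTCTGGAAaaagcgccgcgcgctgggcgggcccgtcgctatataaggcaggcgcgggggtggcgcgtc
DNAJB1 (chr19:14518398-14518517, strand -): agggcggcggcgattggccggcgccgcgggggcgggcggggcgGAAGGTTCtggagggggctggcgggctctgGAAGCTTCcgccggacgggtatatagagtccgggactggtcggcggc
HSPA1A (chr6:31815423-31815542, strand +): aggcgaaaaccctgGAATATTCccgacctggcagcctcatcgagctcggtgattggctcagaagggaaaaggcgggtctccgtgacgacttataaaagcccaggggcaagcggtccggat
HSPH1 (chr13:31162389-31162508, strand -): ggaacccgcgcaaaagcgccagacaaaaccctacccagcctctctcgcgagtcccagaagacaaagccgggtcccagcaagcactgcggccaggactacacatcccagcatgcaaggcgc
CHORDC1 holds 5 overlapping or neighbouring matches in this stretch, HSP90AA1 3, HSPA8 and DNAJB1 2 each and HSPA1A 1, whereas HSPH1 holds none of these exact letters here. A match is a description of the letters and not of binding.

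FGF2 raised most chaperone groups in the receptor lines held in fulvestrant, and few members in control lines. In the 4 FGFR2 lines 28 of 43 members rose and 2 fell (adjusted p under 0.05, with 16.9% of all tested genes called higher and 20.3% lower), with a median log2 fold change of 0.29 over members and -0.03 over all genes. In the FGFR1 line 23 rose and 1 fell (12.7% and 14% of all genes; median 0.44). In control lines 5 rose and 1 fell (7.02% and 4.95%, median 0.09). These classes differ in their number of libraries. For the difference in response between FGFR2 and control lines, given below, edgeR called no member. The members' mean rose less in K660N (0.10 log2 CPM) than in GFP cells (0.15), and more in the other receptor lines. The mean log2 CPM of the members was 6.27 ± 0.16 (SD, n = 30) in receptor lines under fulvestrant and 6.57 ± 0.10 (SD, n = 30) with FGF2 added, against 6.28 ± 0.10 (SD, n = 12) and 6.39 ± 0.08 (SD, n = 12) in control lines. All 6 FGFR1 libraries with FGF2, and 16 of 24 FGFR2 libraries, lay above every library without it. Median MT-RNR2 shares without and with FGF2 were 20.7% and 15.5% in the FGFR1 line, 20.2% and 16.1% in the FGFR2 lines, and 23.4% and 21.1% in control lines. Their part was not tested.

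**Figure D1:**
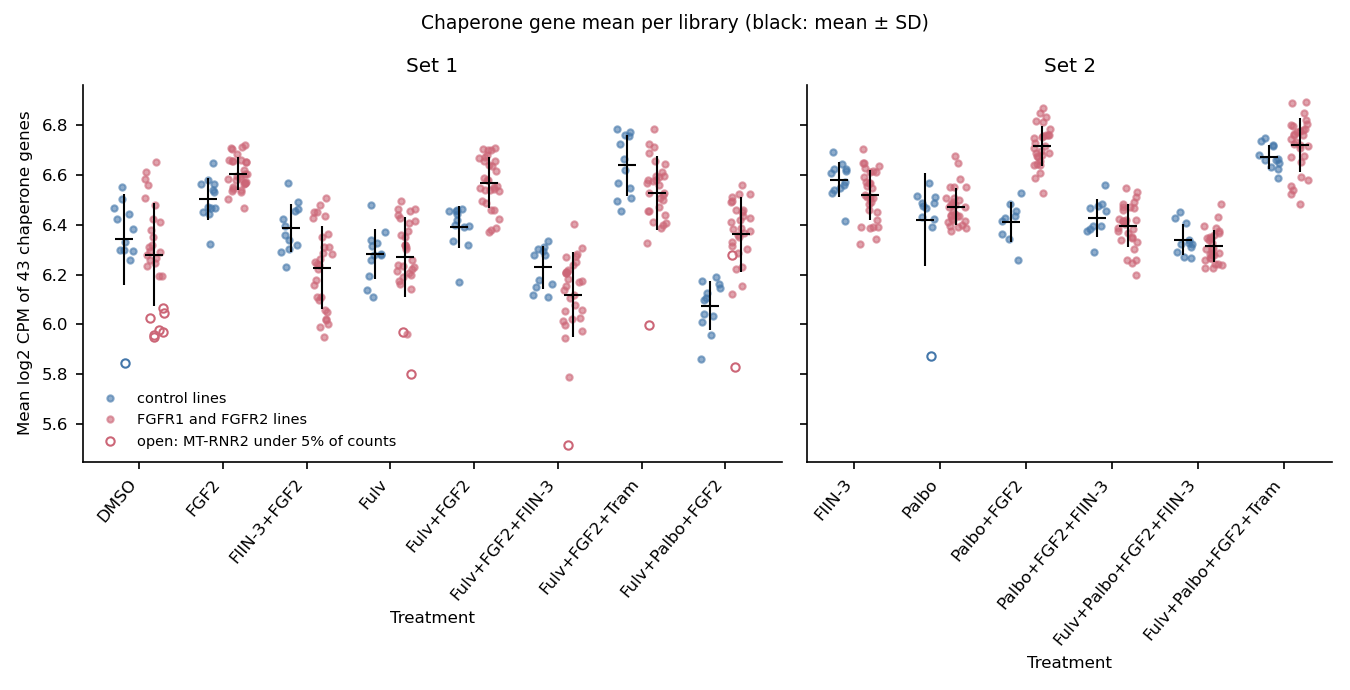
Mean log2 CPM of the 43 members in each library (points) with the mean and SD of the control and of the receptor lines, by treatment and set; open points are libraries with MT-RNR2 under 5% of counts. In set 1 the receptor lines stand at 6.57 with fulvestrant plus FGF2 and 6.12 with FIIN-3 added, while the control lines rise from 6.39 to 6.64 with trametinib.

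HSPA13 responded most among the Hsp70 genes. In the FGFR1 line it ran from 7.75 to 13.2 CPM (median 11.2) under fulvestrant and from 20.5 to 36.3 CPM (median 31.2) with FGF2, a log2 fold change of 1.45 ± 0.19 (adjusted p = 2.91e-05), with no overlap between the 6 and 6 libraries. In the FGFR2 lines the same gene ran from 6.40 to 23.7 CPM (median 15.3) without and 13.1 to 43.1 CPM (median 26.5) with FGF2, 0.79 ± 0.11 (adjusted p = 8.03e-08). HSPA8 followed the same order, with 1591 to 2276 CPM (median 1767) against 3089 to 4158 CPM (median 3399.5) in the FGFR1 line (0.87 ± 0.13 (adjusted p = 9.76e-05)). In the FGFR2 lines its libraries overlapped, at 1138 to 2983 CPM (median 2311) without and 2409 to 4315 CPM (median 3215) with FGF2 (0.48 ± 0.08 (adjusted p = 1.03e-05)). HSPH1 rose in the FGFR2 lines from 16.2 to 66.1 CPM (median 45.1) to 31.9 to 94.4 CPM (median 64.8), 0.63 ± 0.14 (adjusted p = 0.000582). Also HSPA4, an exchange factor related to HSPH1, HSPA4L and the ribosome-bound HSPA14 rose in both receptor classes. HSPA1A went the other way in the FGFR2 lines, from 18.05 to 59.2 CPM (median 24.1) to 10.7 to 29.8 CPM (median 20.02), -0.42 ± 0.11 (adjusted p = 0.00248).

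Of the Hsp90 group, 5 of 7 members rose in the FGFR1 line and the same number in the FGFR2 lines. STIP1, the adaptor that hands clients from Hsp70 to Hsp90, ran from 178.05 to 258.2 CPM (median 245.9) under fulvestrant and from 399 to 529 CPM (median 494) with FGF2 in the FGFR1 line (0.96 ± 0.12 (adjusted p = 2.86e-05)), with no overlap. HSP90AA1 rose by 0.60 ± 0.13 there and by 0.42 ± 0.10 in the FGFR2 lines, and HSP90AB1 by 0.35 ± 0.11 and 0.21 ± 0.05 (adjusted p = 0.0268 and 0.00084). FKBP4, an immunophilin of steroid receptor complexes, rose by 0.72 ± 0.13 and 0.41 ± 0.10, and CHORDC1, an Hsp90 cochaperone, by 0.76 ± 0.14 and 0.43 ± 0.10. TRiC moved together in the FGFR2 lines, where 7 of 7 subunits rose, led by CCT5 (0.49 ± 0.09 (adjusted p = 3.93e-05)) and TCP1 (0.46 ± 0.08 (adjusted p = 2.43e-05)), and 5 of 7 rose in the FGFR1 line. Of the 5 mitochondrial members, HSPA9 (mitochondrial Hsp70), HSPD1 and the J protein DNAJA3 rose in both classes, with HSPD1 at 0.53 ± 0.14 and 0.31 ± 0.07. HSPE1 did not pass in the FGFR2 lines (-0.35 ± 0.17 (adjusted p = 0.104); 0.03 without the 2 libraries low in MT-RNR2). The ubiquitous J protein DNAJB1 rose by 0.20 ± 0.06 (adjusted p = 0.00648), and HSF1 itself gave 0.01 ± 0.15 (adjusted p = 0.983).

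In control lines the members that rose with FGF2 under fulvestrant were DNAJC9, a J protein and histone chaperone of replicating cells (0.46 ± 0.09 (adjusted p = 0.000654)), HSPA14 (0.41), CCT5 (0.35), HSP90AA1 (0.30) and STIP1 (0.25), and DNAJB2, a J protein with ubiquitin-binding motifs, fell (-0.59 ± 0.18 (adjusted p = 0.0318)). DNAJC9 ran from 38.6 to 74.2 CPM (median 56.1) without to 61.1 to 106.3 CPM (median 77.8) with FGF2, with overlap between the groups, and gave -0.03 ± 0.09 (adjusted p = 0.793) in the FGFR2 lines. The difference in FGF2 response between the FGFR1 line and control lines passed for 7 members, all in the direction of a larger rise in the FGFR1 line (2.03% of all genes higher, 2.77% lower): HSPA13 (0.97 ± 0.30), HSPA8 (0.75 ± 0.13), STIP1 (0.72 ± 0.14), FKBP4 (0.71 ± 0.17), TCP1 (0.55 ± 0.13), DNAJA3 (0.54 ± 0.16) and CCT4 (0.46 ± 0.11). For the FGFR2 lines against control lines no member passed by edgeR (1.46% of all genes higher, 1.77% lower); 9 of 43 had an unadjusted p under 0.05, and the DESeq2 Wald test called 2. Without the 2 libraries low in MT-RNR2, CCT2 (0.42) and DNAJC9 (-0.40) passed. By line, the mean of the members rose by 0.45 log2 CPM in FGFR1, 0.44 in wild-type FGFR2, 0.29 in M538I, 0.21 in N550K and 0.10 in K660N cells, against 0.15 in GFP and 0.07 in parental cells.

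Without fulvestrant, FGF2 against DMSO gave 25 members higher and 4 lower in the FGFR2 lines (21.4% and 26.2% of all genes), 14 and 3 in the FGFR1 line (14.4% and 17.3%), and 3 and 0 in control lines (3.7% and 2.42%). In the FGFR2 lines HSPA13 (1.08 ± 0.16), HSPH1 (0.83 ± 0.16) and STIP1 (0.79 ± 0.15) rose most with DNAJB4 (0.72 ± 0.26). In the FGFR1 line the 5 DMSO libraries had STIP1 at 98.3, 197.1, 248.9, 279.4 and 305.5 CPM and the 6 FGF2 libraries ran from 452 to 614 CPM (median 498), 1.13 ± 0.26 (adjusted p = 0.00657). The control lines' members were HSPA2 (0.81 ± 0.19), HSPH1 (0.60 ± 0.14) and HSPA14 (0.50 ± 0.12), and without the 1 DMSO library low in MT-RNR2 also HSP90AA1 (0.37) and, lower, DNAJB6 (-0.29). HSPE1, HSPA1A, DNAJC8 and DNAJC9 were called lower in the FGFR2 lines; without the 6 DMSO libraries low in MT-RNR2, 26 members rose and only HSPA1A fell (-0.24, adjusted p = 0.0471), with HSPE1 at -0.03 in place of -0.89 and DNAJB4 at 0.50 no longer called, and HSP90AA1 called at 0.44 in place of 0.12. In the FGFR1 line HSPE1 (-1.31), HSPA1A (-0.99) and DNAJC8 (-0.82) fell, and leaving out the 1 such DMSO library ended each of these calls (HSPE1 -0.39, HSPA1A -0.52).

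FIIN-3 lowered most of the chaperone genes when added to fulvestrant plus FGF2 in the receptor lines. There 31 of 43 members fell and 5 rose, while 30.4% of all genes were called lower and 32.6% higher, and the median log2 fold change was -0.37 over members and 0.03 over all genes. The members' mean log2 CPM was 6.57 ± 0.10 (SD, n = 30) without and 6.12 ± 0.17 (SD, n = 30) with FIIN-3, and 29 of 30 treated libraries lay below all 30 without it. Median totals were 7550827 counts without and 6304141 with FIIN-3, and 1 of the treated libraries was low in MT-RNR2. The median share of MT-RNR2 was 15.9% without and 19.5% with FIIN-3, and 21.1% and 23.9% in control lines. Its part in the fall of the chaperones was not tested. The fall appeared in each line: -0.54 log2 CPM in M538I, -0.53 in K660N, -0.43 in FGFR1, -0.43 in wild-type FGFR2 and -0.32 in N550K cells, with 6 of 6 treated libraries below all 6 others in each. Each of the 31 members that fell was lower in 5 of 5 lines. By role the falls were 7 of 9 Hsp70, 4 of 5 mitochondrial, 6 of 7 Hsp90, 6 of 12 J protein and 7 of 7 TRiC genes, and 1 of the 3 regulators (BAG3), while 3 J protein and 2 Hsp70 genes rose.

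**Figure D2:**
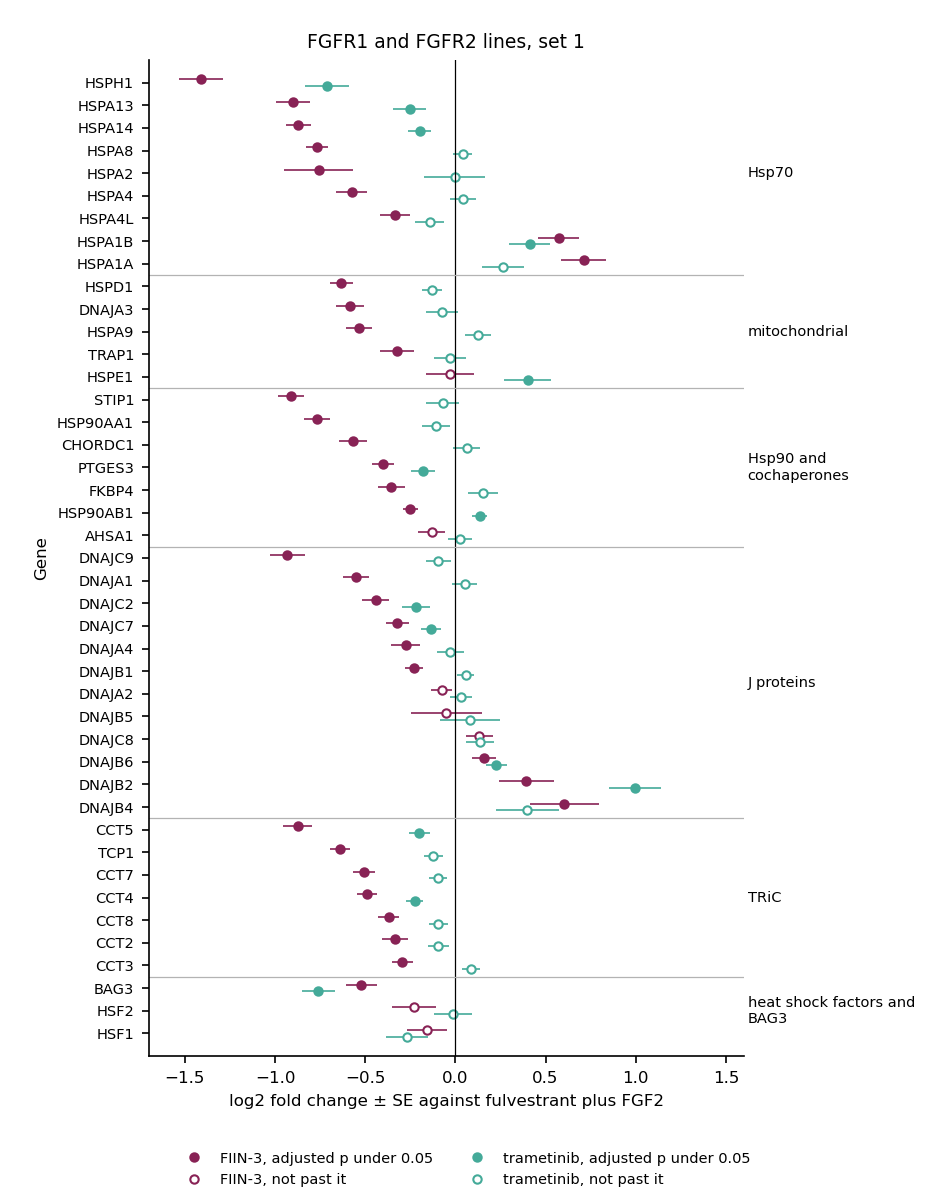
Log2 fold change of each member for FIIN-3 and for trametinib, both against the fulvestrant plus FGF2 libraries they share, in receptor lines of set 1, with bars of 1 SE; filled points have an adjusted p under 0.05. HSPH1 stands at -1.41 with FIIN-3 and -0.71 with trametinib, and HSPA8 at -0.77 and 0.04.

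HSPH1 fell most. It ran from 29.5 to 94.4 CPM (median 62.4) with fulvestrant plus FGF2 and from 14.02 to 35.98 CPM (median 22.3) with FIIN-3, and 26 of 30 treated libraries lay below all others. Its log2 fold change was -1.41 ± 0.12 (adjusted p = 4.26e-16), a 2.66-fold fall. HSPA8 ran from 2409 to 4315 CPM (median 3338) without and 1159 to 3007 CPM (median 1783) with FIIN-3, -0.77 ± 0.06 (adjusted p = 2.48e-17), with 29 of 30 treated libraries below all others. HSPA13 (-0.90 ± 0.09), HSPA14 (-0.87 ± 0.07), HSPA2 (-0.76 ± 0.19), HSPA4 (-0.57 ± 0.09) and HSPA4L (-0.33 ± 0.08) also fell. The stress-inducible pair went the other way. HSPA1A ran from 10.7 to 29.8 CPM (median 18.5) without and 18.6 to 152.6 CPM (median 28.03) with FIIN-3, above the median without it in 30 of 30 libraries, 0.71 ± 0.12 (adjusted p = 1.35e-06). HSPA1B, whose reads may be shared with HSPA1A, gave 0.57 ± 0.11 (adjusted p = 1.49e-05). Without the library low in MT-RNR2 the value for HSPA1A was 0.57, again called.

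Of the Hsp90 group, STIP1 separated the treatments fully. It ran from 312.4 to 534 CPM (median 451) without and 50.3 to 304.95 CPM (median 244.9) with FIIN-3, with 30 of 30 treated libraries below all others, -0.91 ± 0.07 (adjusted p = 1.07e-17). HSP90AA1 ran from 1751 to 4138 CPM (median 2389) to 951 to 1926 CPM (median 1383) in the same order, -0.77 ± 0.07 (adjusted p = 2.16e-14). HSP90AB1 moved less, from 1558 to 2029 CPM (median 1788) to 1089.9 to 1733 CPM (median 1432), -0.25 ± 0.04 (adjusted p = 3.42e-07). CHORDC1 (-0.57 ± 0.08), PTGES3, the cochaperone p23 (-0.40 ± 0.06), and FKBP4 (-0.35 ± 0.08) fell, and AHSA1, which stimulates the Hsp90 ATPase, did not pass (-0.13 ± 0.07 (adjusted p = 0.117)). All TRiC subunits fell, from -0.30 ± 0.06 for CCT3 to -0.88 ± 0.08 for CCT5. In mitochondria, HSPD1 ran from 220.7 to 389 CPM (median 295.8) to 116.4 to 253.4 CPM (median 180.7), -0.63 ± 0.06 (adjusted p = 6.39e-14). DNAJA3 (-0.59 ± 0.08), HSPA9 (-0.53 ± 0.07) and the mitochondrial Hsp90 TRAP1 (-0.32 ± 0.10) fell too. HSPE1, which shares a promoter region with HSPD1, ran from 58.9 to 125.9 CPM (median 86.5) without and 49.6 to 442 CPM (median 71.8) with FIIN-3 and gave -0.03 ± 0.13 (adjusted p = 0.866); without the library low in MT-RNR2 it was -0.22 (adjusted p = 0.00386).

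The J proteins divided. DNAJC9 ran from 39.6 to 96.5 CPM (median 60.5) without and 6.29 to 57.5 CPM (median 31.4) with FIIN-3, -0.93 ± 0.10 (adjusted p = 7.19e-13), with 23 of 30 treated libraries below all others. DNAJA1, a J protein partner of HSPA8 (-0.55 ± 0.07), the ribosome-associated DNAJC2 (-0.44 ± 0.07), DNAJC7 (-0.32 ± 0.06), DNAJA4 (-0.28 ± 0.08) and DNAJB1 (-0.23 ± 0.05 (adjusted p = 3.61e-05)) fell. DNAJB4 (0.60 ± 0.19 (adjusted p = 0.00464)), DNAJB2 (0.39 ± 0.15 (adjusted p = 0.0211)) and DNAJB6, which holds back polyglutamine aggregates (0.16 ± 0.06 (adjusted p = 0.0286)), rose; by line the first of these was higher in 4 of 5. DNAJA2 (-0.08), DNAJB5 (-0.05) and DNAJC8 (0.13) did not pass. BAG3, a stress-inducible exchange factor that links Hsp70 to autophagy, fell by 0.52 ± 0.08 (adjusted p = 2.61e-07), while HSF1 (-0.16 ± 0.11 (adjusted p = 0.206)) and HSF2 (-0.23 ± 0.12 (adjusted p = 0.0934)) did not pass.

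**Figure D3:**
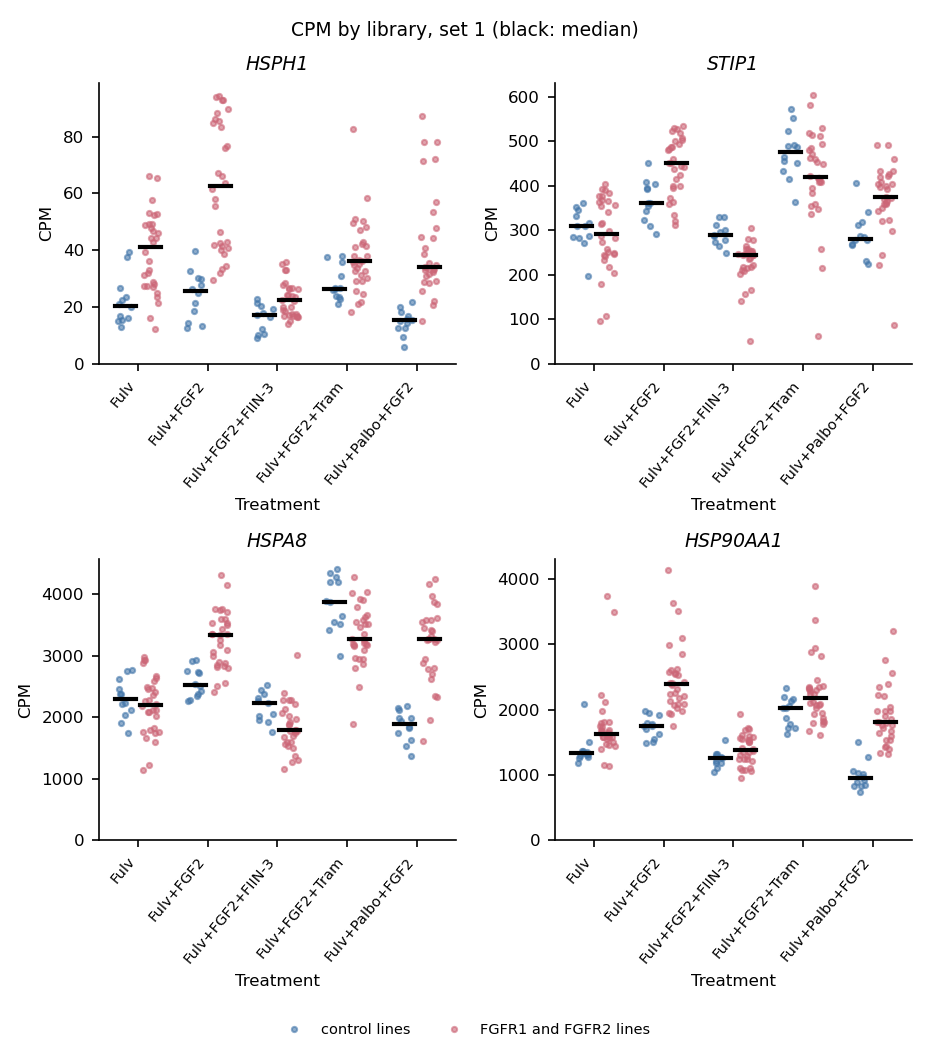
CPM of HSPH1, STIP1, HSPA8 and HSP90AA1 in each set 1 library (points) by treatment, with black lines at the medians, control and receptor lines apart. For STIP1 all 30 receptor libraries with FIIN-3 (50.3 to 304.95 CPM) lie below the 30 with fulvestrant plus FGF2 (312.4 to 534 CPM).

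Control lines responded less to FIIN-3. There 13 members fell and 4 rose (13.8% of all genes lower, 10.9% higher; median -0.13). HSPA2 (-1.21 ± 0.25), DNAJC9 (-1.14 ± 0.09), HSPA14 (-0.66 ± 0.11) and CCT5 (-0.54 ± 0.07) fell most, and DNAJC9 ran from 61.1 to 106.3 CPM (median 77.8) without and 27.996 to 49.4 CPM (median 34.4) with FIIN-3, with 11 of 11 treated libraries below all others. HSP90AA1 fell by 0.46 ± 0.07 and HSPA8 by 0.22 ± 0.07, while HSP90AB1 gave 0.00 ± 0.06 (adjusted p = 0.985). HSPA1A rose, from 16.6 to 25.5 CPM (median 20.02) to 22.9 to 32.7 CPM (median 26.8), 0.41 ± 0.08 (adjusted p = 0.00031), as did DNAJB2 (0.43), DNAJB6 (0.35) and FKBP4 (0.26). With no filter on low counts 10 members were called in control lines. The difference between receptor and control lines, tested after the separate values had been seen, passed for 18 members, each with the larger fall in receptor lines, and for 0 in the other direction (5.31% and 5.08% of all genes). Leading these were HSPH1 (-0.92 ± 0.23 (adjusted p = 0.00404)), HSPA13 (-0.86 ± 0.20 (adjusted p = 0.0016)), FKBP4 (-0.67 ± 0.13 (adjusted p = 0.000171)) and STIP1 (-0.65 ± 0.12 (adjusted p = 7.64e-05)). HSPA8 (-0.60 ± 0.11 (adjusted p = 3.18e-05)), HSP90AA1 (-0.36 ± 0.12 (adjusted p = 0.0454)), HSP90AB1 (-0.30 ± 0.07 (adjusted p = 0.00183)), HSPD1 (-0.41 ± 0.11 (adjusted p = 0.0047)) and 5 of 7 TRiC subunits were among them. DNAJC9 (0.16 ± 0.17 (adjusted p = 0.62)), HSPA1A (0.25 ± 0.21 (adjusted p = 0.514)) and HSPA2 (0.41 ± 0.34 (adjusted p = 0.498)) were not. With no filter on low counts 7 members passed.

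Trametinib added to fulvestrant plus FGF2 raised chaperones in control lines and left most of them without a call in receptor lines. These comparisons use the same fulvestrant plus FGF2 libraries as those for FIIN-3, FGF2 and palbociclib. In control lines 24 members rose and 2 fell (11.8% of all genes higher, 16% lower; median 0.27 over members, -0.02 over all genes). In receptor lines 5 rose and 9 fell (16.9% and 18%; median -0.03). The members' mean log2 CPM moved from 6.39 ± 0.08 (SD, n = 12) to 6.64 ± 0.12 (SD, n = 12) in control lines, where 11 of 12 treated libraries lay above all others. In receptor lines it was 6.57 ± 0.10 (SD, n = 30) without and 6.53 ± 0.15 (SD, n = 30) with trametinib, with changes between -0.13 (M538I) and 0.02 (FGFR1) by line. The rises in control lines covered 7 of 7 TRiC, 5 of 7 Hsp90, 4 of 5 mitochondrial, 5 of 12 J protein and 3 of 9 Hsp70 genes.

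HSPA8 in control lines ran from 2264 to 2934 CPM (median 2525) without and 2989 to 4406 CPM (median 3876) with trametinib, 12 of 12 treated libraries above all others, 0.59 ± 0.06 (adjusted p = 2.65e-08). In receptor lines it ran from 2409 to 4315 CPM (median 3338) to 1889 to 4284 CPM (median 3269), 0.04 ± 0.05 (adjusted p = 0.59). HSP90AB1 in control lines was at 1529 to 1842 CPM (median 1615) without and 1891 to 2330.5 CPM (median 2188) with trametinib, again without overlap, 0.40 ± 0.05 (adjusted p = 9.51e-07). The same gene gave 0.13 ± 0.04 (adjusted p = 0.00578) in receptor lines. FKBP4 ran from 169.7 to 259.1 CPM (median 202.7) to 273.7 to 403 CPM (median 307.5) in control lines, also without overlap, 0.64 ± 0.07 (adjusted p = 6.95e-08). CHORDC1, with the densest run of promoter matches shown above, ran from 21.1 to 57.4 CPM (median 49.9) to 49.5 to 108.7 CPM (median 78.4), 0.72 ± 0.12 (adjusted p = 2.76e-05), and gave 0.06 ± 0.07 (adjusted p = 0.551) in receptor lines. Smaller rises in control lines were those of HSPD1 (0.26 ± 0.07), HSPE1 (0.32 ± 0.08), DNAJB1 (0.27 ± 0.06), STIP1 (0.37 ± 0.07) and HSP90AA1 (0.18 ± 0.06), and HSPA2 (-0.64 ± 0.21 (adjusted p = 0.0237)) and BAG3 (-0.26 ± 0.10 (adjusted p = 0.0356), not called with no filter on low counts) fell.

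In receptor lines BAG3 and HSPH1 fell most with trametinib. BAG3 ran from 23.8 to 56.7 CPM (median 36.1) without and 12.6 to 43.3 CPM (median 20.6) with the drug, 21 of 30 treated libraries below all others, -0.76 ± 0.09 (adjusted p = 3.34e-10). HSPH1 ran from 29.5 to 94.4 CPM (median 62.4) to 18.4 to 82.8 CPM (median 36.02), -0.71 ± 0.12 (adjusted p = 2.72e-06), and was lower in 5 of 5 lines. Falls of at most 0.25 (HSPA13) were called for 7 further members, among them CCT4, CCT5 and PTGES3. DNAJB2 rose in both classes: from 2.65 to 14.5 CPM (median 5.97) to 7.10 to 51.3 CPM (median 11.9) in receptor lines, 1.00 ± 0.15 (adjusted p = 9.26e-08), and by 0.75 ± 0.16 (adjusted p = 0.000405) in control lines. HSPA1B (0.41 ± 0.11 (adjusted p = 0.00274)), HSPE1 (0.40 ± 0.13 (adjusted p = 0.012)) and DNAJB6 (0.23) rose with it in receptor lines. HSP90AA1 (-0.11 ± 0.08 (adjusted p = 0.306)), STIP1 (-0.07 ± 0.09 (adjusted p = 0.592)), HSPD1 (-0.13 ± 0.05 (adjusted p = 0.0514)), HSPA1A (0.26 ± 0.12 (adjusted p = 0.0716)), DNAJC9 (-0.09 ± 0.07 (adjusted p = 0.309)), DNAJB1 (0.06) and HSF1 (-0.27 ± 0.12 (adjusted p = 0.0665)) did not pass there. Without the 1 library low in MT-RNR2, HSPD1 (-0.13) and FKBP4 (0.19) passed. With no filter on low counts 9 members were called in receptor lines.

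The response to trametinib differed between receptor and control lines for 21 members, each lower in receptor lines, and for 0 in the other direction (4.38% and 5.92% of all genes); this test too was added after the separate values had been seen. All 7 TRiC subunits passed, from -0.28 ± 0.08 for CCT3 to -0.53 ± 0.10 for TCP1 (adjusted p = 4.73e-05). HSPH1 (-0.96 ± 0.22 (adjusted p = 0.00113)), CHORDC1 (-0.67 ± 0.14 (adjusted p = 0.000601)), HSPA13 (-0.57 ± 0.19 (adjusted p = 0.0384)) and HSPA8 (-0.55 ± 0.09 (adjusted p = 7.55e-06)) had the largest differences. HSP90AB1 (-0.28 ± 0.07 (adjusted p = 0.00306)) and HSPD1 (-0.40 ± 0.09 (adjusted p = 0.00117)) passed, whereas HSP90AA1 (-0.30 ± 0.12 (adjusted p = 0.108)), DNAJB2 (0.23 ± 0.25 (adjusted p = 0.652)) and HSPE1 (0.06 ± 0.20 (adjusted p = 0.9)) did not. Without the 1 receptor library low in MT-RNR2, HSP90AA1 (-0.33) and DNAJA3 (-0.33) passed and DNAJA1 did not (-0.34 ± 0.12 (adjusted p = 0.0558)). MT-RNR2 fell with trametinib in control lines, from a median of 21.1% to 17.6% of counts, and was 15.9% and 16.5% in receptor lines; its part in the difference was not tested.

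Trametinib and FIIN-3 left different chaperone levels in the receptor lines, and the direct comparison could be made in both sets. The difference was not particular to receptor lines. In control lines the members' mean log2 CPM was 6.64 with trametinib and 6.23 with FIIN-3 in set 1, and 6.67 and 6.34 in set 2. In receptor lines these means were 6.53 and 6.12, and 6.72 and 6.31. Single members were compared directly in receptor lines only. Whether the difference comes from the point of the block or from other traits of the drugs was not tested. In set 1, on fulvestrant plus FGF2, 32 members were higher and 2 lower with trametinib than with FIIN-3 (29.4% and 27.5% of all genes; median 0.40). In set 2, with palbociclib added to both arms, 32 of 41 tested members were higher and 3 lower (27.8% and 31.1% of all genes, median 0.48). Median MT-RNR2 shares were 16.5% with trametinib and 19.5% with FIIN-3 in set 1, and 16.8% and 22.1% in set 2. Their part was not tested. The 2 lists of higher members shared 29. Most members were called in each set, so lists of this size must share many. The overlap over all genes was not computed. HSPA8 in set 2 ran from 2400.2 to 3695 CPM (median 2923) with FIIN-3 and 4968 to 11616 CPM (median 6340.4) with trametinib, 29 of 29 trametinib libraries above all 28 others, 1.09 ± 0.05 (adjusted p = 6.53e-32). HSP90AA1 ran from 854 to 1465 CPM (median 1049) and 1659 to 2289 CPM (median 1982) in the same order, 0.87 ± 0.04 (adjusted p = 3.56e-33). The set 1 values were 0.83 ± 0.06 for HSPA8 and 0.68 ± 0.08 for HSP90AA1. STIP1 (0.87 ± 0.10 and 0.74 ± 0.04), HSPD1 (0.52 ± 0.06 and 0.54 ± 0.04), HSPE1 (0.44 ± 0.16 and 0.48 ± 0.06), HSP90AB1 (0.41 ± 0.05 and 0.48 ± 0.04) and HSPH1 (0.71 ± 0.11 and 0.66 ± 0.10) were higher with trametinib in set 1 and set 2. DNAJC9 was higher by 0.86 ± 0.10 in set 1 and by 0.24 ± 0.09 in set 2, where both arms held palbociclib. BAG3 was the 1 member lower in both (-0.22 ± 0.08 and -0.44 ± 0.10), HSPA1A was lower in set 1 (-0.43 ± 0.14), and HSF1 (-0.42 ± 0.08 (adjusted p = 9.4e-06)) and DNAJB4 (-0.32) in set 2.

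**Figure D4:**
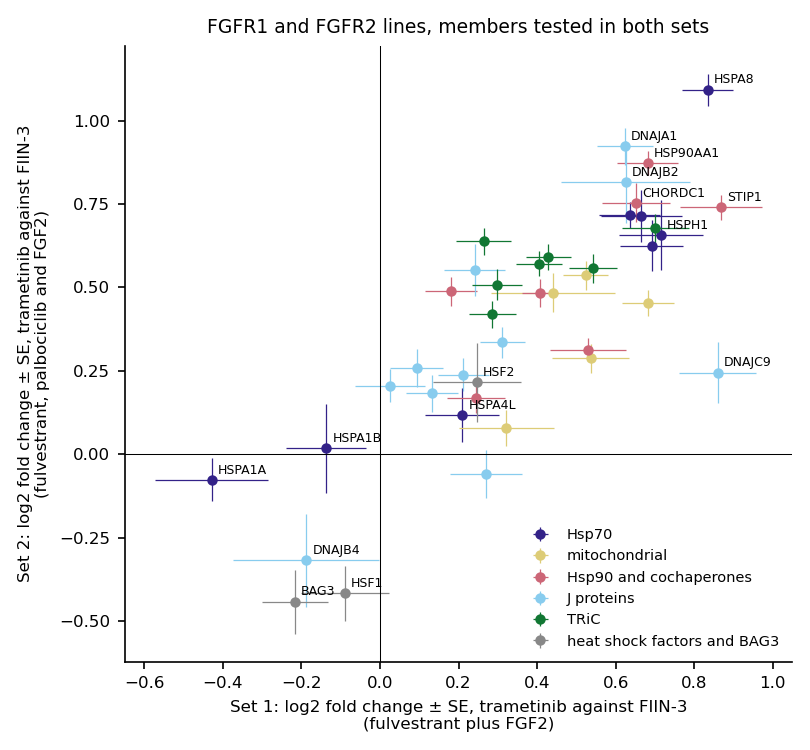
Log2 fold change of each member tested in both sets for trametinib against FIIN-3 in receptor lines, set 1 on the horizontal and set 2 on the vertical axis, with bars of 1 SE. HSPA8 stands at 0.83 and 1.09, and BAG3 at -0.22 and -0.44.

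Palbociclib, added to fulvestrant plus FGF2, lowered 20 members and raised 0 in control lines (14.6% of all genes lower, 11.3% higher; median -0.22), and lowered 16 and raised 7 in receptor lines (18.8% and 23.8%; median -0.12). DNAJC9 was the member most clearly lower in both. In control lines it ran from 61.1 to 106.3 CPM (median 77.8) without and 20.5 to 38.04 CPM (median 27.3) with palbociclib, -1.54 ± 0.10 (adjusted p = 8.37e-14). In receptor lines it ran from 39.6 to 96.5 CPM (median 60.5) to 9.35 to 35.2 CPM (median 20.4), -1.55 ± 0.08 (adjusted p = 4.35e-26), and no treated library of either class reached the untreated ones. HSPA2, near the limit of detection, ran from 2.14 to 9.17 CPM (median 5.62) to 0 to 3.51 CPM (median 0.773) in control lines (-2.64 ± 0.33 (adjusted p = 1.3e-07)) and fell by 1.88 ± 0.27 (adjusted p = 2.84e-08) in receptor lines. HSP90AA1 in control lines ran from 1490.4 to 1982 CPM (median 1749.8) to 730.2 to 1509 CPM (median 944), -0.82 ± 0.10 (adjusted p = 4.4e-08), and gave -0.38 ± 0.07 (adjusted p = 1.38e-05) in receptor lines. Further falls in both classes were those of HSPH1 (-0.72 and -0.57), CCT5 (-0.85 and -0.58), HSPD1 (-0.57 and -0.42) and DNAJB1 (-0.26 and -0.14). HSPA8 fell in control lines (-0.48 ± 0.08 (adjusted p = 1.76e-05)) and gave -0.02 ± 0.06 (adjusted p = 0.835) in receptor lines, and HSP90AB1 passed in neither (-0.07 and 0.06); whether the classes differ was not tested.

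The members raised by palbociclib in receptor lines were led by the HSPA1 pair. HSPA1A ran from 10.7 to 29.8 CPM (median 18.5) without and 20.7 to 82.6 CPM (median 28.1) with palbociclib, above the median without it in 29 of 29 libraries, 0.64 ± 0.09 (adjusted p = 1.51e-08), and HSPA1B rose by 0.43 ± 0.13. DNAJB2 (0.40 ± 0.16 (adjusted p = 0.0346)) and DNAJB6 (0.35) followed, with AHSA1, HSPA4 and DNAJA2 at 0.24, 0.22 and 0.19. Without the 2 libraries low in MT-RNR2, DNAJB2 was at 0.22 and no longer called, and HSPE1 moved from 0.04 to -0.20 (adjusted p = 0.0257). HSF1 gave -0.08 ± 0.13 (adjusted p = 0.664).

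**Figure D5:**
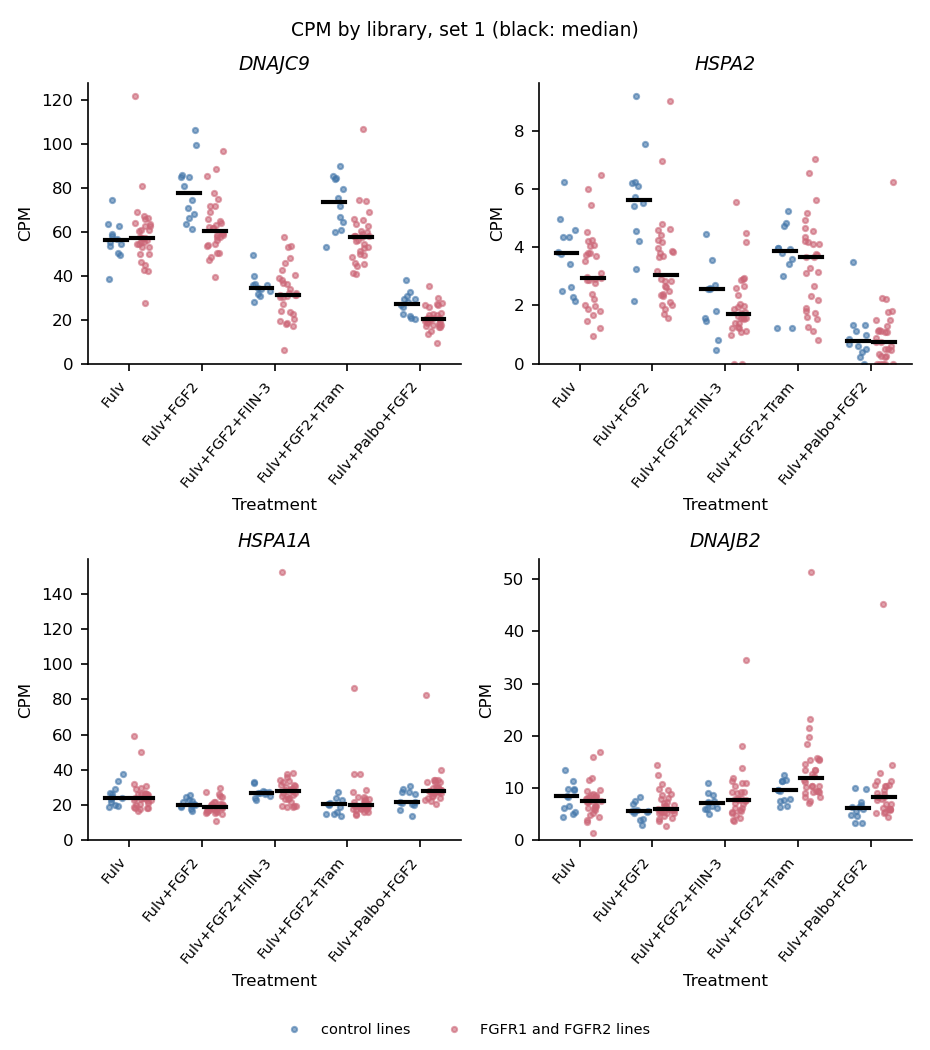
CPM of DNAJC9, HSPA2, HSPA1A and DNAJB2 in each set 1 library (points) by treatment, with black lines at the medians, control and receptor lines apart. DNAJC9 in receptor lines has a median of 60.5 CPM with fulvestrant plus FGF2 and 20.4 with palbociclib added, and DNAJB2 medians of 5.97 and 11.9 CPM without and with trametinib.

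Set 2 asked the FGF2 and FIIN-3 questions again in cells held in palbociclib, in other libraries. HSPA2 and DNAJB5 were too low to be tested. FGF2 raised 29 of 41 members and lowered 0 in receptor lines (22.1% and 24.7% of all genes; median 0.19); in control lines edgeR called none (0.778% and 0.331%), 6 had an unadjusted p under 0.05 and the DESeq2 Wald test called 1. Without the 1 parental palbociclib library low in MT-RNR2, CCT2 (-0.22) and FKBP4 (-0.22) were called lower in control lines. HSPH1 in receptor lines ran from 26.01 to 95.3 CPM (median 51.1) with palbociclib and 56.4 to 153.5 CPM (median 117.8) with FGF2 added, 0.99 ± 0.10 (adjusted p = 6.44e-13). HSP90AA1 ran from 939 to 1622 CPM (median 1172) to 1476 to 2033 CPM (median 1774), 0.54 ± 0.04 (adjusted p = 1.42e-18). BAG3 (0.93 ± 0.11), HSPA13 (0.89 ± 0.09), HSPA8 (0.51 ± 0.05), STIP1 (0.48 ± 0.04), HSPD1 (0.22 ± 0.04), HSPE1 (0.20 ± 0.07) and HSF1 (0.25 ± 0.07) rose, and 7 of 7 TRiC subunits did. Of the 28 members that FGF2 raised in FGFR2 lines under fulvestrant and the 29 raised here, 25 were shared. Lists that hold most members must share many, and the overlap over all genes was not computed. By line the members' mean rose by 0.32 in wild-type FGFR2, 0.31 in M538I, 0.30 in FGFR1, 0.19 in N550K and 0.10 in K660N cells, and it was 0.02 in parental and -0.03 in GFP cells.

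FIIN-3 in this setting lowered 28 members and raised 2 in receptor lines (27.3% and 29.4% of all genes, median -0.30). The median MT-RNR2 share was 16.1% without and 21.6% with FIIN-3, and its part was not tested. Of the 28 lowered members, 25 were among the 31 lowered in set 1. Here too each list holds most members, and the overlap over all genes was not computed. HSPH1 ran from 56.4 to 153.5 CPM (median 117.8) without and 11.97 to 74.3 CPM (median 44.97) with FIIN-3, -1.36 ± 0.08 (adjusted p = 1.22e-23). HSPA8 ran from 4729 to 7596 CPM (median 6134) to 2674 to 4076 CPM (median 3442), 29 of 29 treated libraries below all others, -0.85 ± 0.04 (adjusted p = 5.81e-31). HSP90AA1 (-0.69 ± 0.04) and STIP1 (-0.63 ± 0.04) separated as fully, and BAG3 (-0.99 ± 0.08) and HSPA13 (-0.85 ± 0.09) fell as well. Called in set 1 but not here were DNAJC9 and HSPA1A, among others. DNAJC9, already low under palbociclib, was at 8.87 to 24.7 CPM (median 19.1) without and 8.59 to 28.03 CPM (median 17.7) with FIIN-3 (0.02 ± 0.09 (adjusted p = 0.845)), and HSPA1A gave -0.08 ± 0.07 (adjusted p = 0.319); the difference between sets was not tested. In control lines 4 members rose, HSPA1A (0.49), FKBP4 (0.37), DNAJA1 (0.20) and CCT2 (0.20), and 1 fell, HSPA4 (-0.22; 4.75% and 4.7% of all genes).

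Without FGF2, fulvestrant was compared with DMSO in the control and FGFR2 lines, and the N550K, K660N and FGF3 lines with GFP cells at DMSO. Few members were called by edgeR, and the counts moved with the settings. Fulvestrant against DMSO lowered FKBP4, an oestrogen-responsive gene, in control lines, from 70.997 to 499 CPM (median 363.9) to 140.2 to 262.6 CPM (median 187.5) with overlapping libraries, -0.79 ± 0.17 (adjusted p = 0.00979), and no other member (0.977% of all genes lower, 0.572% higher). Without the 1 DMSO library low in MT-RNR2, 5 members were called lower: FKBP4, CCT5 (-0.43), TRAP1 (-0.42), HSPD1 (-0.39) and HSPA8 (-0.33). In the FGFR2 lines edgeR called no member (1.08% and 1.86%), 14 had an unadjusted p under 0.05 and the DESeq2 Wald test called 2. Without the 8 libraries low in MT-RNR2 there, FKBP4 was called lower (-0.55 ± 0.08 (adjusted p = 2.23e-06)). Libraries were also paired by the order of their title numbers within each group, since the labels give no replicate number. In 11 of 12 such pairs, matched between fulvestrant and DMSO, the deviations from the group means correlated above 0.1 (median 0.76). With these pairs as a block (the replicate block) 6 members were called lower, led by HSPE1 (-0.53), FKBP4 (-0.35) and DNAJC9 (-0.32). The block also gave 3 members called higher, DNAJB4 (0.74), HSF2 (0.43) and HSPA13 (0.35). At DMSO, no member was called by edgeR in the N550K or the K660N line against GFP cells (N550K 0.954% and 0.644% of all genes, with 3 members at an unadjusted p under 0.05 and 3 called by DESeq2; K660N 0.923% and 0.591%, with 2 and 0). Without the 2 N550K libraries and the 1 GFP library low in MT-RNR2, 4 members were called higher in the N550K line, HSPH1 (1.07), HSF1 (0.63), BAG3 (0.61) and HSPA14 (0.48), and none in the K660N line. In the FGF3 line CHORDC1 was lower than in GFP cells by edgeR (-0.83 ± 0.21 (adjusted p = 0.0294), with 3.94% of all genes lower and 3.24% higher). That call was lost without the libraries of low depth, which include most FGF3 DMSO libraries, so few were left to test. Without the GFP library low in MT-RNR2, 2 members were called higher, STIP1 (0.78) and HSPA1B (0.90), and 4 lower, PTGES3 (-0.62), CCT8 (-0.50), CCT2 (-0.47) and CHORDC1, and leaving out 1 library at a time gave 0 to 6 calls.

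In the FGF3 line, which makes its own ligand, 6 of 40 tested members fell and 0 rose under FIIN-3 without added FGF2 (6.03% and 4.39% of all genes). The members' mean log2 CPM was 6.17 ± 0.15 (SD, n = 5) with DMSO and 6.05 ± 0.17 (SD, n = 6) with FIIN-3, with overlapping libraries. Median totals were 1854451 counts with DMSO and 6921242 with FIIN-3. DNAJC9 was at 51.2, 54.99, 68.1, 81.3 and 82.8 CPM in the 5 DMSO libraries and ran from 21.03 to 37.1 CPM (median 30.9) in the 6 with FIIN-3, -1.21 ± 0.20 (adjusted p = 0.000347). STIP1 (-0.78 ± 0.13), HSPA8 (-0.45 ± 0.14), CCT5 (-0.49 ± 0.13), PTGES3 (-0.56 ± 0.15) and HSPA4 (-0.46 ± 0.14) fell too. No member was called once libraries of low depth were left out. Most of the 5 DMSO libraries are low in depth, so few were left to test, and the effect of depth itself was not tested. With a replicate block HSPA4 was not called (-0.42 ± 0.14 (adjusted p = 0.061)). Trametinib on fulvestrant raised DNAJB2, which was at 6.03, 6.10, 7.31 and 8.14 CPM in the 4 fulvestrant libraries and ran from 13.1 to 21.2 CPM (median 13.97) in the 6 with trametinib, 1.13 ± 0.23 (adjusted p = 0.00309), and lowered BAG3 (-0.56) and DNAJC9 (-0.51; 2.99% and 4.44% of all genes); only DNAJB2 was called without libraries of low depth. With a replicate block 5 rose and 2 fell, with CHORDC1 (0.50), CCT8 (0.47), HSP90AA1 (0.37) and DNAJA1 (0.32) added to the calls. In set 2, against the FGF3 libraries labelled control, palbociclib lowered 7 members (4.8% of all genes lower, 1.73% higher). DNAJC9 was at -1.79 ± 0.24 and HSP90AA1 at -0.62 ± 0.14. Without 1 library labelled control, of low depth and low MT-RNR2, 14 fell, among them STIP1 (-0.44) and FKBP4 (-0.40), and BAG3 rose (0.62).

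Over the 64 groups of set 1, most members followed the mean of the others. Pearson's r between a member's group means and the mean of the other members was above 0.5 for 27 of 43 and below 0 for 3, with a median of 0.67; in the 48 groups of set 2 it was above 0.5 for 26 and below 0 for 4. These groups share lines, treatments and library depth, so the values describe and do not test. TCP1 (0.98 in set 1, 0.94 in set 2), HSPA8 (0.90 and 0.95) and HSPD1 (0.92 and 0.91) lay nearest the shared pattern. HSPA1A (-0.62 and -0.12), HSPA1B (-0.49 and -0.20) were below 0 in both sets, DNAJB2 in set 1 (-0.19; 0.23 in set 2), and DNAJB4 (0.15 and -0.49) and HSF1 (0.01 and -0.06) in set 2. Group means spread most for HSPH1 (a range of 3.28 log2 CPM in set 1), HSPA2 (3.24), HSPA13 (2.49) and DNAJC9 (2.34), and the spread for HSP90AB1 was 0.70.

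Other chaperone genes of the cell were taken as a list of 40 partners outside the 43. These are small heat shock proteins, further cochaperones, prefoldins, mitochondrial proteases and the TRiC subunit CCT6A. Their counts are given beside the share of all genes called, and the lists were not tested as sets. With FIIN-3 in receptor lines 11 of 39 rose and 17 fell (32.6% of all genes higher, 30.4% lower). CCT6A fell from 482 to 736 CPM (median 630.2) to 216.3 to 508 CPM (median 341.8), -0.79 ± 0.05 (adjusted p = 3.09e-21). The Hsp90-bound phosphatase PPP5C (-0.90 ± 0.09) and the mitochondrial disaggregase CLPB (-0.76 ± 0.08) fell too. With trametinib 9 of 40 rose and 6 fell in receptor lines (16.9% of all genes higher, 18% lower). In control lines 13 of 39 rose and 2 fell with it (11.8% and 16%). With FGF2 under fulvestrant 10 of 39 rose and 2 fell in FGFR2 lines (16.9% of all genes higher, 20.3% lower). In control lines 1 of 39 rose and 2 fell with it (7.02% and 4.95%).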

How the data were processed

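Gene counts of 647 libraries, deposited by the authors as whole-number counts per gene, were the unit of every test; a second deposited table holds log2(TPM + 1) values, of which 133 columns were used and 514 were not. Reads were aligned with STAR to hg19, per the submitters' processing notes; the counting program, annotation and versions are not given in the sources used here. Total counts per library and their range are given with the results. For each comparison, genes were kept by edgeR's filterByExpr (minimum count 10), scaled by TMM and tested with edgeR's quasi-likelihood F test (edgeR 4.0.16, R 4.3.3) with line as an additive term, over all kept genes, with Benjamini-Hochberg adjustment and calls at an adjusted p under 0.05. Differences of responses were tested as interaction terms. Log2 fold changes are fitted, with their SE, and CPM are scaled by TMM over each set, so a ratio of CPM medians can differ from the fitted change. DESeq2 1.42.0 and limma 3.58.1 served as alternatives; limma used the deposited log2 values as they are. The fit was tested on simulated data: for trametinib against FIIN-3 in set 1, 96 of 96 genes changed by 1 on the log2 scale were recovered and 81 of 97 changed by 0.5, among 13058 genes; for FGF2 against DMSO in the FGFR1 line, with 6 and 5 libraries, 76 of 97 and 8 of 98 were recovered among 12430 genes. The simulation gave every gene the same dispersion and had no deviating libraries such as those low in MT-RNR2. Recovery in the real libraries may therefore differ. Among 1559 pairs of libraries of 1 group, 0 were identical. Pairs matched by the order of title numbers all deviated together (every correlation above 0.1) in 2 comparisons of the FGF3 line, FIIN-3 and trametinib. There the block's effect is given beside the result. Members, partners, promoter motifs and comparisons were chosen with earlier results of these data known. All members are described; 10 well-known ones and, per comparison, up to 4 a direction with the largest called change are given in full.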

Additional observations from a re-analysis of the deposited data

Results flagged for a closer look

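In 14 groups of 4 to 6 libraries 1 library's mean log2 CPM over the members lay far from the other libraries of its group, by Dixon's test; chance alone flags about 1 in 20 groups. In 5 of them the library was low in MT-RNR2: FGFR2 wild-type under fulvestrant, replicate 3 (MT-RNR2 1.85% of counts), had 5.80 against 6.16 to 6.30 in the others, FGFR2 N550K under fulvestrant, replicate 3 (1.59%), had 5.97 against 6.32 to 6.50, and FGFR2 K660N under fulvestrant, FGF2 and trametinib, replicate 3 (1.22%), had 6.00 against 6.39 to 6.61. In set 2 the parental library under palbociclib, replicate 4 (1.56%), had 5.87 against 6.39 to 6.57. The FGF3 library labelled control, replicate 3 (1.99%, 619509 counts), had 6.39 against 6.57 to 6.67. The FGF3 DMSO library replicate 1 of set 1, with 603534 counts, had 5.90 against 6.18 to 6.29.

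The other 8 had ordinary MT-RNR2 shares. Among parental libraries of set 1, replicate 4 under fulvestrant had 6.48 against 6.28 to 6.34, replicate 5 with FGF2 added 6.17 against 6.40 to 6.46, and replicate 1 with FGF2 and FIIN-3 6.18 against 6.28 to 6.33. The GFP library replicate 2 under fulvestrant, FGF2 and FIIN-3 had 6.31 against 6.11 to 6.16, and the wild-type FGFR2 library replicate 3 with trametinib 6.78 against 6.53 to 6.59. In set 2, under fulvestrant, palbociclib and FGF2, the parental library replicate 1 with FIIN-3 had 6.45 against 6.27 to 6.32, the N550K library replicate 6 with trametinib 6.59 against 6.71 to 6.77 and the K660N library replicate 5 with trametinib 6.76 against 6.48 to 6.55. No cause was tested for any of them.

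Responses that differed between receptor and control lines by an interaction test are given as log2 differences, receptor minus control, and are values from the comparisons above. For FGF2 under fulvestrant in the FGFR1 line they were HSPA13 (0.97), HSPA8 (0.75), STIP1 (0.72), FKBP4 (0.71), TCP1 (0.55), DNAJA3 (0.54) and CCT4 (0.46). For FIIN-3 they were HSPH1 (-0.92), HSPA13 (-0.86), FKBP4 (-0.67), STIP1 (-0.65), CHORDC1 (-0.63), HSPA8 (-0.60), DNAJA1 (-0.52), TCP1 (-0.43), CCT2 (-0.43), HSPA9 (-0.41), HSPD1 (-0.41), CCT4 (-0.41), CCT8 (-0.39), DNAJA3 (-0.39), CCT5 (-0.39), HSP90AA1 (-0.36), DNAJA2 (-0.32) and HSP90AB1 (-0.30). For trametinib they were HSPH1 (-0.96), CHORDC1 (-0.67), HSPA13 (-0.57), HSPA8 (-0.55), TCP1 (-0.53), BAG3 (-0.51), HSPA14 (-0.50), FKBP4 (-0.49), CCT8 (-0.48), CCT2 (-0.48), STIP1 (-0.45), CCT5 (-0.45), CCT4 (-0.45), DNAJC2 (-0.43), DNAJA4 (-0.42), CCT7 (-0.41), HSPD1 (-0.40), DNAJA1 (-0.34), DNAJC7 (-0.31), CCT3 (-0.28) and HSP90AB1 (-0.28). The comparisons share the libraries with fulvestrant plus FGF2, so a member found in more than 1 list was not found independently.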

How the results depend on the processing

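Counts of members called were recomputed under other settings, and 63 of the recomputed counts moved by more than 1.5 times. Those for FIIN-3 in receptor lines (36 reported, 35 to 37) and for trametinib against FIIN-3 (34 reported, 30 to 36 in set 1; 35 reported, 34 to 35 in set 2) held. With no filter on low counts, which tests more genes, the counts were 10 for FIIN-3 on fulvestrant plus FGF2 and 3 for FIIN-3 on palbociclib plus FGF2 in control lines, 9 for trametinib in receptor lines, 7 for the difference in response to FIIN-3 and 4 for that to FGF2 in the FGFR1 line, 2 each for fulvestrant in control lines, FGF2 on palbociclib in control lines, FIIN-3 in the FGF3 line and the FGF3 line against GFP, and 1 for K660N against GFP. With the DESeq2 Wald test they were 5 for FGF2 against DMSO in control lines, 3 and 2 for fulvestrant in control and FGFR2 lines, 1 for FGF2 on palbociclib in control lines, 3 for N550K and 5 for FGF3 against GFP, 5 and 11 for trametinib and palbociclib in the FGF3 line, and 11 and 2 for the differences in FGF2 response in FGFR1 and FGFR2 lines; DESeq2 size factors gave 1 for the last. Without libraries low in MT-RNR2 they were 5 for FGF2 against DMSO in control lines, 5 and 1 for fulvestrant in control and FGFR2 lines, 2 for FGF2 on palbociclib in control lines, 4 for N550K and 6 for FGF3 against GFP, 15 for palbociclib in the FGF3 line and 2 for the difference in FGF2 response in FGFR2 lines. Without libraries of low depth the FGF3 line gave 0 against GFP, 0 with FIIN-3, 1 with trametinib and 15 with palbociclib. The counts against GFP and with FIIN-3 rest on the few FGF3 DMSO libraries left. On the log2(TPM + 1) values, which cover DMSO, fulvestrant and FGF2 only, so that limma was not run elsewhere, the counts were 6 for FGF2 against DMSO and 0 for fulvestrant in control lines and 0 for FGF3 against GFP; HSP90AA1 (0.55, FGF2 against DMSO, FGFR1 line) and DNAJC9 (0.085, the same in FGFR2 lines) changed sign there, as did HSPE1 (-0.20, palbociclib in receptor lines) without libraries low in MT-RNR2. The cause of these shifts was not tested. Leaving out 1 library at a time gave 10 to 18 members for FGF2 against DMSO in the FGFR1 line, 0 to 6 for FGF3 against GFP, and 2 to 6 with FIIN-3 and 1 to 6 with trametinib in the FGF3 line.

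The labels hold no replicate number, so the libraries of a group were put into up to 3 pairs by the order of their title numbers. Pairs of the same order were matched between the arms of a comparison, and they form the replicate block. The replicate numbers given for single libraries follow the order in which the samples were listed and not these pairs. Deviations of matched pairs from their group means had a median correlation of 0.13 over all comparisons, with 60 pairs below 0. In set 1, DMSO and fulvestrant libraries of control and receptor lines lie in the same stretches of title numbers. Those with FGF2, and those with a further drug added, lie in partly different stretches. A matched pair can thus join different stretches, and the block does not remove such differences. The part of these stretches in the results was not tested. By comparison the median ran from -0.20 to 0.76, highest for fulvestrant against DMSO in FGFR2 lines with 11 of 12 pairs above 0.1; every pair was above 0.1 for FIIN-3 and trametinib in the FGF3 line, and not elsewhere. With a replicate block the counts were 2 and 9 for fulvestrant in control and FGFR2 lines, 10 for FGF2 under fulvestrant in control lines, 1 for N550K against GFP, 7 for trametinib in the FGF3 line, and 12 and 3 for the differences in FGF2 response in FGFR1 and FGFR2 lines, and within 1.5 times the reported counts elsewhere. Depth limits most the FGF3 line and low members such as HSPA2 and DNAJB5.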

Other observations

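Small heat shock proteins, ATP-independent holdases that are not among the 43 genes, had the largest changes of the partner list, and these went with trametinib. HSPB1 (Hsp27) ran from 272.1 to 726 CPM (median 454) with fulvestrant plus FGF2 and 2381 to 3780.2 CPM (median 2942) with trametinib in control lines, 12 of 12 treated libraries above all others, 2.68 ± 0.10 (adjusted p = 5.21e-19) on the log2 scale. In receptor lines it ran from 419 to 1293 CPM (median 725) to 2147 to 11497 CPM (median 3609.6), 30 of 30 above all others, 2.45 ± 0.13 (adjusted p = 3.45e-25). HSPB8, which works with BAG3, rose by 1.92 ± 0.13 (adjusted p = 5.14e-13) and 1.90 ± 0.15 (adjusted p = 7.64e-17) in control and receptor lines, while BAG3 itself fell in both, and the lens crystallin CRYAB rose by 1.30 ± 0.25 (adjusted p = 0.000216) and 1.89 ± 0.23 (adjusted p = 7.54e-10). With FIIN-3, HSPB1 rose by 1.37 ± 0.14 (adjusted p = 4.55e-09) in control and 0.74 ± 0.11 (adjusted p = 2.79e-08) in receptor lines, and HSPB8 fell in receptor lines (-0.52 ± 0.14 (adjusted p = 0.000857)). In set 2, trametinib against FIIN-3 gave 1.94 ± 0.07 (adjusted p = 6.28e-38) for HSPB1 and 2.05 ± 0.08 (adjusted p = 2.33e-35) for HSPB8, each with 29 of 29 trametinib libraries above all 28 others. Genes named here were chosen after their values were seen.

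Groups outside the comparisons gave these means over the members. With FIIN-3 plus FGF2 in set 1 the mean log2 CPM was 6.39 ± 0.10 (SD, n = 12) in control and 6.23 ± 0.16 (SD, n = 29) in receptor lines. With FIIN-3 alone in set 2 it was 6.58 ± 0.07 (SD, n = 12) and 6.52 ± 0.10 (SD, n = 30). In set 1, FIIN-3 without FGF2 gave 6.03 ± 0.17 (SD, n = 6) log2 CPM in the N550K line, and fulvestrant plus FIIN-3 gave 6.01 ± 0.10 (SD, n = 6). In the FGF3 line of set 1 the means were 5.89 ± 0.02 (SD, n = 6) with fulvestrant plus FIIN-3 and 5.86 ± 0.06 (SD, n = 6) with fulvestrant plus palbociclib. For this line in set 2 they were 6.45 ± 0.08 (SD, n = 5) with FIIN-3 and 6.31 ± 0.07 (SD, n = 5) with palbociclib plus FIIN-3. With fulvestrant and palbociclib they were 6.28 ± 0.07 (SD, n = 6) with FIIN-3 added and 6.60 ± 0.06 (SD, n = 4) with trametinib added.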
